A study of Homo sapiens with 12 samples.

Results

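Niraparib response was measured here in K562 cells in which AUNIP was repressed together with each of 542 partner genes. The library served CRISPR interference: each construct expresses a pair of sgRNAs, and a catalytically dead Cas9 fused to a repressor is thereby led to 2 promoters at once. All constructs with an AUNIP sgRNA in either position and a sgRNA of another gene in the other were taken, which gave 4336 of 1301881 constructs and 542 of 147153 gene pairs, with 8 constructs for each pair (2 AUNIP sgRNAs by 2 partner sgRNAs in both orders). No partner was left out. AUNIP itself was chosen with its niraparib response known, so its own response is given as a description without a test, whereas the partners were not picked by their values.

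K562 is a human chronic myelogenous leukemia line, and all libraries came from its CRISPRi derivative, transduced at low multiplicity and selected with puromycin. The niraparib arm of the 2023 screen had 2 µM of the PARP inhibitor from day 9 after transduction (T0), raised to 3 µM from day 2 of dosing, was moved to drug-free medium after 4 days and was harvested on day 19. The niraparib arm of the 2022 screen had 2 µM for 3 days and was harvested on day 18. Each reference arm had the vehicle, DMSO, and was harvested on the same day as its niraparib arm. Each group had 2 replicate cultures, and both arms of a culture were divided from it after its T0 sample was taken. The 12 libraries held 182.6 to 460.7 megareads, and the median AUNIP-partner construct had 90 to 469 reads in a library. Between 2 and 13 of the 4336 constructs had no read in a given library. Knockdown of AUNIP or of any partner was not measured.
Replicate 1 of 2022 stood apart for several genes that change the niraparib response by themselves. With non-targeting sgRNAs, BRCA2 had a growth change of -2.10 in it against -1.05 to -1.08 in the other cultures, BARD1 -2.06 against -1.07 to -1.13, RAD54L -1.07 against -0.14 to -0.17 and PARP1 -1.35 against -0.55 to -0.58. The responses of these genes differed there too, and reference reads enter both growth and response. The response interactions of these genes with AUNIP are therefore also given without that culture. The comparison with the BRCA2 background and the BRCA2 difference between screens are given only with it. The cause was not tested. No molecular identifiers were used before the PCR, so counting error alone understates the spread.

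AUNIP, Aurora kinase A and ninein interacting protein, was first described at centrosomes and spindle poles. It is also recruited to DNA double-strand breaks, where it binds CtIP (RBBP8 in this library) and promotes the end resection that begins homologous recombination. PARP inhibitors such as niraparib hold PARP1 on DNA and block the repair of single-strand breaks, and cells short of homologous recombination are known to tolerate them poorly.

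The AUNIP promoter is shown because CRISPR interference acts near the start of a gene. The sgRNA names hold coordinates, but the sources used here do not state their genome build. Whether the AUNIP sgRNAs lie in the printed bases was therefore not determined. The 250 bases before the RefSeq start of AUNIP lie on the minus strand of chromosome 1, chr1:25859458-25859707 in GRCh38.p14, and are printed 5′ to 3′ on the gene's strand with each NGG, the motif that Cas9 needs beside its target, in capitals.
AUNIP promoter: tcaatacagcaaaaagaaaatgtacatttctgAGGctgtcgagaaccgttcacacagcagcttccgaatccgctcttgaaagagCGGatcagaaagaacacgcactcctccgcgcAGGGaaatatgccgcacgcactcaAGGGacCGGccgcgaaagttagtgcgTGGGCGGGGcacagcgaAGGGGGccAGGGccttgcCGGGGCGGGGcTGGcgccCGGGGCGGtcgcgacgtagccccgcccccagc
The motif NGG (any base, then 2 G, overlapping matches counted) occurred 29 times on the printed strand and 20 times on the other. Such a motif on either strand was present in 35114 of 35116 RefSeq promoters (99.99%) in the same 250-base window, so it does not set AUNIP apart.

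Repression of AUNIP alone left growth without drug near that of non-targeting controls and lowered read counts under niraparib relative to them. Here a response is the log2 ratio of niraparib over reference reads relative to constructs with 2 non-targeting sgRNAs, summed over the 220 constructs that pair AUNIP with a non-targeting sgRNA. It was -1.10 and -1.11 in the replicates of 2023 and -1.07 and -1.09 in those of 2022, with a mean of -1.09 ± 0.02 (SD, n = 4). The 4 cultures lay close together although the 2023 dosing was longer and higher. The first AUNIP sgRNA, in name order, had a response of -1.42 and the second one of -0.94. Growth without drug, the log2 ratio of reference over T0, was 0.01 and 0.03 in 2023 and -0.08 and 0.03 in 2022. The fitted growth change was -0.00 with an SE of 0.02 and did not pass the edgeR test (adjusted p = 0.921), in a library where 85.3% of the 543 genes did. LIG3, C4orf27 and ZAR1L were among the 5 genes whose 8 values (growth and response in 4 cultures) were nearest to those of AUNIP, with a mean absolute difference of 0.19, 0.20 and 0.20 on the log2 scale.

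For each partner, the response in AUNIP-repressed cells was set relative to AUNIP with non-targeting sgRNAs and compared with the response of the same partner paired with non-targeting sgRNAs. Their difference is called the response interaction: below 0, cells with both genes repressed were more depleted by niraparib than the 2 single responses add up to, and above 0, less. RAD18, the ligase that attaches ubiquitin to the clamp PCNA at stalled forks, shows the reads behind such a value. AUNIP with RAD18 had 390 and 304 reads under niraparib against 2604 and 2474 in reference in 2023, and 627 and 692 under niraparib against 4718 and 5534 in reference in 2022. RAD18 with non-targeting sgRNAs had 52864 and 44242 reads under niraparib against 64132 and 59863 in reference in 2023, and 76320 and 77798 under niraparib against 139513 and 136274 in reference in 2022. AUNIP with non-targeting sgRNAs had 44965 and 37425 reads under niraparib against 83221 and 77133 in reference in 2023, and 63283 and 66396 under niraparib against 181574 and 177742 in reference in 2022. The double knockdown therefore lost far more of its reads under drug than either single one in each of the 4 cultures.

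Of the 542 partners, 309 passed the edgeR quasi-likelihood test of the response interaction (57%, adjusted p under 0.05 over all pairs): 60 were lower (11.1%) and 249 were higher (45.9%). Over all 147124 gene pairs tested, 24.7% passed, 9.84% lower and 14.9% higher. The share that fell was thus near that of all pairs, while the share that rose was above it. The median interaction was 0.11 over AUNIP partners and 0.00 over all pairs. Over the 543 genes taken as background in turn, AUNIP ranked 34 by the number of partners that passed, against a median of 122 partners a gene and a maximum of 408. Of the 309, 286 had the same sign in all 4 cultures. The 233 others lay between -0.24 and 0.30. Only 9 partners fell by more than 0.5 and 36 rose by more than 0.5. With a curve of degree 2 fitted through the partners in place of the plain sum, and limma on 4 values, 56 partners passed (28 lower and 28 higher), against 2.15% of all pairs.

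**Figure D1:**
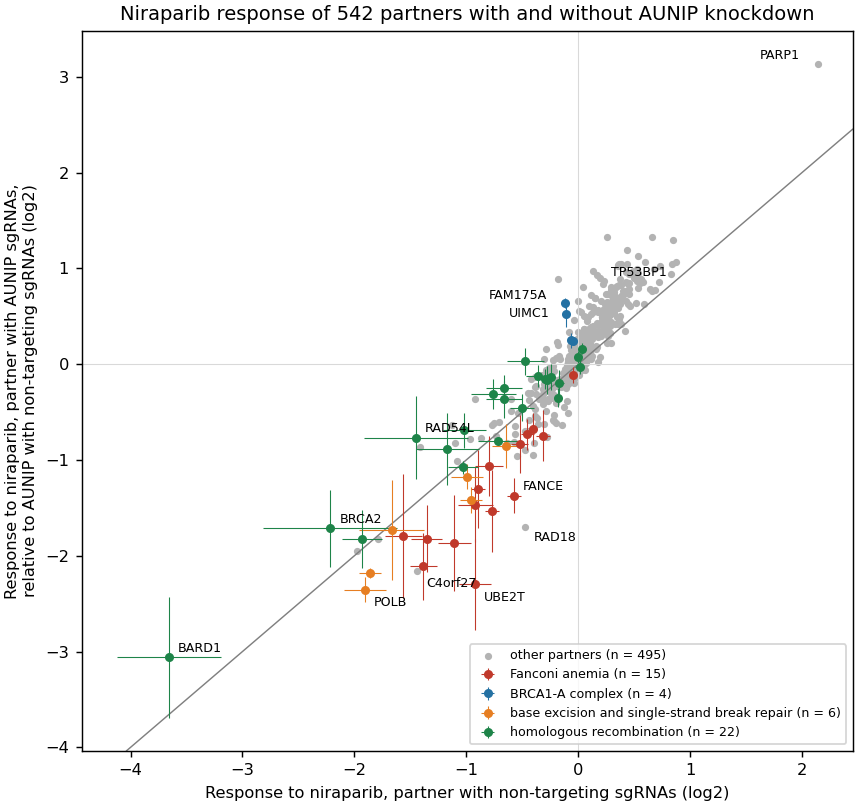
Niraparib response of 542 partners (log2, mean of 4 cultures) with AUNIP sgRNAs, relative to AUNIP with non-targeting sgRNAs (vertical axis), against the response with non-targeting sgRNAs (horizontal axis). Bars on the coloured gene lists are SD over 4 cultures and the line marks equal responses. The 15 Fanconi anemia genes lie below the line, as does RAD18, and all 4 BRCA1-A genes lie above it.

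Fanconi anemia genes made up much of the lower end. Their core complex is a ubiquitin ligase that, with the conjugating enzyme UBE2T, modifies the FANCD2-FANCI pair at crosslinked or stalled DNA. Of 15 measured members, 13 fell, none rose and 2 did not pass, beside 11.1% of all AUNIP partners that fell. The median interaction of the 15 was -0.43 against 0.11 over all AUNIP partners. These members were FANCA, FANCB, FANCC, FANCE, FANCF, FANCG, FANCL and FANCM, the associated proteins C19orf40 (FAAP24), STRA13 (CENPX) and C17orf70 (FAAP100), UBE2T, FANCD2, FANCI, and WDR48, a cofactor of the deubiquitinase of FANCD2. With the curve as expectation, 6 of 15 passed, all lower, with a median of -0.33. With the first AUNIP sgRNA alone 9 of 15 fell, and with the second 15 of 15.

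UBE2T had the lowest interaction of all partners, -1.38 with an SE of 0.09 (adjusted p = 3.26e-19 in edgeR). In AUNIP-repressed cells its response was -2.40 and -2.77 in 2023 and -1.64 and -2.39 in 2022, against -0.96 and -1.04 in 2023 and -0.71 and -0.96 in 2022 with non-targeting sgRNAs. Every value with AUNIP was below every value without. All 8 constructs of the pair lay below 0. Taken as a mean of log2 ratios over constructs with 10 added to each count, the interaction was -0.83.

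FANCE, a core complex subunit that contacts FANCD2, had a response of -1.51 and -1.54 in 2023 and -1.16 and -1.28 in 2022 with AUNIP. It had -0.58 and -0.64 in 2023 and -0.49 and -0.58 in 2022 with non-targeting sgRNAs. The groups did not overlap, and the interaction was -0.80 with an SE of 0.05 (adjusted p = 8.34e-21). FANCF, an adaptor of the core complex, had -1.89 and -1.70 in 2023 and -0.91 and -1.62 in 2022 with AUNIP. Alone it had -0.77 and -0.83 in 2023 and -0.68 and -0.80 in 2022, and its interaction was -0.76 with an SE of 0.07. FANCD2 had -2.12 and -2.16 in 2023 and -1.12 and -2.06 in 2022 with AUNIP. Alone it had -1.17 and -1.25 in 2023 and -0.90 and -1.11 in 2022, so that the AUNIP value of replicate 1 in 2022 lay within the range without AUNIP. The interaction of FANCD2 was -0.77 with an SE of 0.08, or -0.49 as a mean over constructs.

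C19orf40, which helps FANCM bind DNA, had an interaction of -0.74 (SE 0.08), or -0.44 as a mean over constructs. FANCI, the partner of FANCD2, had -0.55 (SE 0.07) and did not pass with the first AUNIP sgRNA alone, where it stood at -0.25. The remaining members that fell ran from FANCA at -0.47 to WDR48 at -0.27. FANCB, at -0.24 (SE 0.10, adjusted p = 0.0733), and C17orf70, at -0.07 (SE 0.04, adjusted p = 0.181), did not pass.

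Replicate 1 of the 2022 screen stood apart for these genes too. In 12 of the 15 Fanconi partners it had the highest response interaction of the 4 cultures, and in 12 of 15 the lowest growth interaction. The median response interaction of the 15 was -0.67 and -0.58 in replicates 1 and 2 of 2023, and -0.17 and -0.39 in replicates 1 and 2 of 2022. Their median growth interaction was -0.06 and -0.17 in 2023, and -0.40 and -0.14 in 2022. Over all 542 partners the median response interaction was between 0.10 and 0.11 in every culture. Without that culture 14 of 15 fell, with a median of -0.52.

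**Figure D2:**
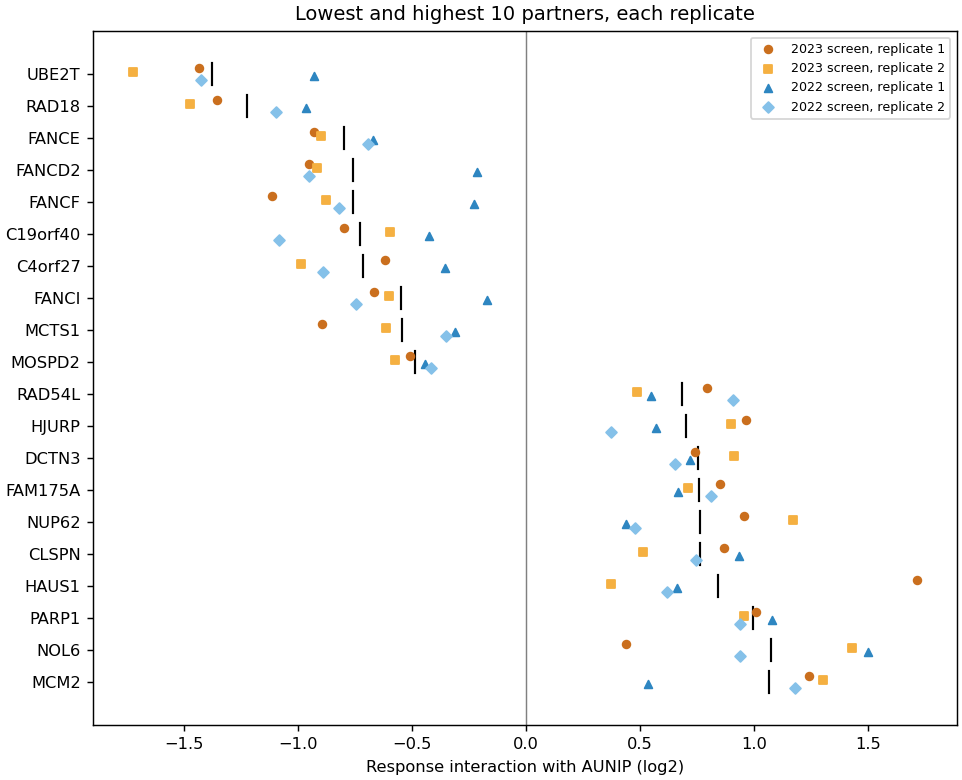
Response interaction with AUNIP (log2, horizontal axis) in each of 4 cultures for the lowest 10 and highest 10 partners. Black lines are means. Replicate 1 of 2022 gave the value nearest 0 for 9 of the lower 10, and no culture of these 20 partners crossed 0.

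RAD18 had the next lowest interaction after UBE2T, and it belongs to none of the gene lists. With AUNIP its response was -1.85 and -1.98 in 2023 and -1.39 and -1.58 in 2022, against -0.49 and -0.50 in 2023 and -0.42 and -0.48 in 2022 with non-targeting sgRNAs. The groups lay far apart in every culture. The interaction was -1.22 with an SE of 0.05 (adjusted p = 2.66e-28), all 8 constructs lay below 0, and the construct means were -0.91 with the first AUNIP sgRNA and -1.08 with the second. Without drug, AUNIP with RAD18 grew slightly less than the sum of the single changes, with a growth interaction of -0.13 (SE 0.04, adjusted p = 0.0123).

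The base excision list, which includes the repair of single-strand breaks, also lay low. Of its 6 measured genes, 5 fell, none rose and XRCC1 did not pass (median -0.27), beside 11.1% of all AUNIP partners that fell. LIG3, the ligase that seals such breaks, had a response of -1.42 and -1.60 in 2023 and -1.38 and -1.28 in 2022 with AUNIP, against -1.03 and -1.04 in 2023 and -0.83 and -0.94 in 2022 alone. Its groups did not overlap, and the interaction was -0.46 with an SE of 0.05 (adjusted p = 2.81e-12). POLB, the gap-filling polymerase, had -2.34 and -2.36 in 2023 and -2.20 and -2.52 in 2022 with AUNIP, against -2.07 and -2.07 in 2023 and -1.74 and -1.75 in 2022 alone. All AUNIP values again lay below, and the interaction was -0.45 with an SE of 0.05 (adjusted p = 2.91e-10). DNPH1, which removes a modified nucleotide that would otherwise enter DNA, had -0.32 and LIG1, the replicative ligase, -0.21. XRCC1, the scaffold for LIG3 and POLB, had -0.04 (SE 0.09, adjusted p = 0.807). With 1 culture left out it ran from -0.22 (without replicate 1 of 2023, where it passed) to 0.09 (without replicate 2 of 2023). With the first AUNIP sgRNA alone 1 of the 6 fell (POLB at -0.19 and DNPH1 at -0.02 did not pass), and with the curve 1 of 6.

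The list for PARP1 and ADP-ribose turnover moved both ways, with 1 of 7 lower, 4 higher and 2 not past the test, and a median of 0.10. All AUNIP partners had 11.1% lower and 45.9% higher, with a median of 0.11. PARP1 is the enzyme that niraparib holds on DNA, and its response was above 0 with and without AUNIP. AUNIP with PARP1 had 11040 and 9519 reads under niraparib against 2402 and 2397 in reference in 2023, and 12437 and 12004 under niraparib against 2776 and 4843 in reference in 2022. The response of PARP1 was 3.09 and 3.03 in 2023 and 3.68 and 2.73 in 2022 with AUNIP, against 2.08 and 2.08 in 2023 and 2.61 and 1.79 in 2022 alone. Each culture was higher with AUNIP, by 0.94 to 1.08, and the interaction was 0.99 with an SE of 0.03 (adjusted p = 5.94e-35), or 0.96 without replicate 1 of 2022. With the curve as expectation the sign turned, to -0.45. The response of PARP1 alone, 2.14 on average, lay far above that of every other partner.

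C4orf27 (HPF1), which directs PARP1 to serine residues, had the opposite sign to PARP1. Its response was -2.18 and -2.57 in 2023 and -1.66 and -2.21 in 2022 with AUNIP, against -1.56 and -1.58 in 2023 and -1.31 and -1.32 in 2022 alone. The interaction was -0.70 with an SE of 0.07 (adjusted p = 1.71e-10), or -0.43 as a mean over constructs. NMNAT1, a nuclear enzyme of NAD synthesis, had 0.19 and did not pass without replicate 1 of 2022 or without replicate 1 of 2023. PARP2, the other enzyme that niraparib inhibits, had 0.10 (SE 0.03, adjusted p = 0.0189), and with the curve -0.04. Without replicate 1 of 2022 only PARP1 of the 7 rose, and without replicate 2 of 2023 PARP2 did not pass.

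The BRCA1-A complex had the highest median of the 15 lists, 0.4745, just above 0.4652 for the Aurora A, centrosome and spindle list. These medians were 0.43 and 0.35 in 2022 alone, and 0.52 and 0.58 in 2023 alone, so the order was not stable. All 4 measured genes of the complex rose, beside 45.9% of all AUNIP partners. This complex binds ubiquitin chains at breaks through UIMC1 (RAP80) and restrains resection, and FAM175A (ABRAXAS1) is its scaffold. FAM175A had a response of 0.70 and 0.61 in 2023 and 0.59 and 0.66 in 2022 with AUNIP, against -0.15 and -0.11 in 2023 and -0.08 and -0.15 in 2022 alone. AUNIP with FAM175A had 3440 and 2888 reads under niraparib against 3923 and 3913 in reference in 2023, and 4964 and 4965 under niraparib against 9490 and 8391 in reference in 2022. Its repression changed the niraparib response little on its own and raised it in AUNIP-repressed cells in every culture, with an interaction of 0.76 (SE 0.03, adjusted p = 3.25e-27). UIMC1 had 0.58 and 0.71 in 2023 and 0.43 and 0.39 in 2022 with AUNIP, against -0.10 and -0.12 in 2023 and -0.09 and -0.12 in 2022 alone. The groups did not overlap and the interaction was 0.63 with an SE of 0.04 (adjusted p = 1.67e-22). BRCC3, the deubiquitinase of the complex, had 0.32 (SE 0.04), and BABAM1 (MERIT40), a structural subunit, 0.29 (SE 0.04). With the curve, 2 of the 4 passed, both higher.

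Among 13 genes of the 53BP1-shieldin axis, which shields broken ends from resection, 8 rose and 2 fell, with a median of 0.13, close to the 0.11 of all AUNIP partners, of which 45.9% rose and 11.1% fell. TP53BP1 (53BP1) had a response of 0.69 and 0.65 in 2023 and 1.18 and 0.84 in 2022 with AUNIP. Alone it had 0.13 and 0.10 in 2023 and 0.55 and 0.12 in 2022. All AUNIP values lay above all values without, and the interaction was 0.62 with an SE of 0.04 (adjusted p = 3.24e-19). RIF1, which 53BP1 recruits, went the other way at -0.41 (SE 0.05, adjusted p = 4.52e-09), but not with the first AUNIP sgRNA alone, where it stood at -0.22 and did not pass. DYNLL1, a dynein light chain that binds 53BP1 and MRE11, had -0.32 (SE 0.05). Without replicate 2 of 2022, 5 of the 13 rose, and with the curve 1 rose and 2 fell.

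End resection genes had 2 of 10 lower, 4 higher and a median of 0.05, beside 11.1% lower and 45.9% higher among all AUNIP partners. ATM, the kinase that starts break signalling, rose by 0.42 (SE 0.05), and the nuclease EXO1 fell by 0.29 on the log2 scale (SE 0.05). Without replicate 1 of 2022, or without replicate 1 of 2023, 2 of the 10 rose. RBBP8 (CtIP), the resection factor that AUNIP is known to bind, had a response of -1.93 and -2.10 in 2023 and -1.60 and -1.67 in 2022 with AUNIP, against -1.95 and -1.96 in 2023 and -1.44 and -1.81 in 2022 alone. The groups overlapped, and the interaction was -0.03 with an SE of 0.07 (adjusted p = 0.843). Taken as a mean over constructs it was 0.41 and passed with limma, whereas with AUNIP in the first position alone it was -0.27 and passed with edgeR, so its direction rests on the setting.

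Of 22 homologous recombination genes, 14 were higher, 1 (HELQ, at -0.17) was lower and 7 did not pass, beside 45.9% higher and 11.1% lower among all AUNIP partners, with a median of 0.13, close to the 0.11 of all AUNIP partners. RAD54L, a motor protein that acts in strand exchange, had -0.90 and -1.25 in 2023 and -0.21 and -0.71 in 2022 with AUNIP, against -1.69 and -1.73 in 2023 and -0.76 and -1.62 in 2022 alone. The values were higher with AUNIP within each culture, by 0.48 to 0.91, and the interaction was 0.69 with an SE of 0.06 (adjusted p = 3.80e-10), or 0.78 without replicate 1 of 2022. BRCA2, a central mediator of the pathway, had -1.70 and -1.90 in 2023 and -1.16 and -2.09 in 2022 with AUNIP, against -2.60 and -2.59 in 2023 and -1.34 and -2.33 in 2022 alone. Its interaction was 0.51 with an SE of 0.07 (adjusted p = 1.03e-08), with 0.80 in 2023 alone and 0.21 in 2022 alone, where it did not pass, and 0.52 without replicate 1 of 2022. BARD1, the partner of BRCA1, had 0.63 (SE 0.11, adjusted p = 6.74e-06) and ranged from 0.15 to 1.19 over the cultures, with 0.50 without replicate 1 of 2022 and 0.40 without replicate 1 of 2023. It stood at 1.10 with the first AUNIP sgRNA alone and at 0.36 with the second, where it did not pass. PALB2, which joins BRCA1 to BRCA2, had 0.33 (SE 0.05), with 0.66 for the first AUNIP sgRNA alone and 0.17 for the second.
BRCA1 had -1.96 and -1.997 in 2023 and -1.38 and -1.98 in 2022 with AUNIP, against -1.99 and -2.11 in 2023 and -1.68 and -1.95 in 2022 alone. These overlapped, and the interaction of 0.10 (SE 0.06, adjusted p = 0.224) did not pass. With the curve, 6 of the 22 homologous recombination genes rose and none fell.

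In the end joining list 5 of 8 rose and none fell, beside 45.9% of all AUNIP partners that rose, with a median of 0.20. NHEJ1 (XLF), XRCC5 (Ku80) and LIG4, of the classical pathway, had 0.45, 0.45 and 0.43 with SE of 0.05, 0.07 and 0.04. Without replicate 2 of 2023, 3 of the 8 rose, and with the curve 2. In the ATR and 9-1-1 checkpoint list 2 of 12 fell and 3 rose, beside 11.1% and 45.9% of all AUNIP partners. The median of this list was 0.09, or 0.02 without replicate 1 of 2023 and 0.06 without replicate 2 of 2022. CLSPN (claspin), which brings CHK1 to ATR, had 0.77 (SE 0.09), ATRIP, the partner of ATR, -0.25 (SE 0.05) and PKMYT1, a kinase that inhibits CDK1, 0.23 (SE 0.05). The count of 2 became 1 without replicate 1 of 2022, without replicate 1 of 2023 or without replicate 2 of 2023. Nucleases and BLM dissolution had 1 riser of 9 and none lower (SLX4 at 0.27, RMI1 at -0.12 and GEN1 at 0.10, of which only SLX4 passed). None of the 3 RNase H2 subunits passed, with values between -0.03 and 0.01.

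Among 25 replisome and clamp loader genes 11 rose and none fell, a share of risers close to the 45.9% of all AUNIP partners, with a median of 0.22. MCM2 of the replicative helicase had the highest interaction of all partners, 1.07 (SE 0.12, adjusted p = 4.05e-11). Its response was 0.91 and 1.08 in 2023 and 0.55 and 1.00 in 2022 with AUNIP, against -0.34 and -0.22 in 2023 and 0.01 and -0.18 in 2022 alone. RPA2, which coats single-stranded DNA, had 0.66, and WDHD1, which couples the helicase to polymerase alpha, 0.54. Of 7 genes for Aurora A, centrosome and spindle, 6 rose and none fell, beside 45.9% of all AUNIP partners that rose. The median of the 7 was 0.47. HAUS1 of augmin had 0.83 (SE 0.17), DCTN3 of dynactin 0.75 (SE 0.09) and DCTN5 0.50 (SE 0.07). AURKA, the kinase whose interaction gave AUNIP its name, had 0.22 (SE 0.06, adjusted p = 0.00696). Its response was 0.36 and 0.29 in 2023 and 0.32 and 0.25 in 2022 with AUNIP, against 0.04 and -0.01 in 2023 and 0.21 and 0.11 in 2022 alone. With the curve, 4 of the 25 and 2 of the 7 rose.
PP2A phosphatase had 1 riser of 5 (PPP2R1A at 0.19, with PPP2CA at 0.13 and PPP2R2A at 0.09 not past the test). Serine and one-carbon metabolism had 4 of 6 (MTHFD1 at 0.43, SHMT2 at 0.20 and PSPH at 0.17). Both counts stand beside 45.9% of all AUNIP partners that rose. Neither count was stable: PPP2R1A did not pass without replicate 2 of 2022 or without replicate 1 of 2023, SHMT2 and PSPH did not pass when any 1 of the 4 cultures was left out, and with the curve none of the 6 and none of the 5 rose.

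**Figure D3:**
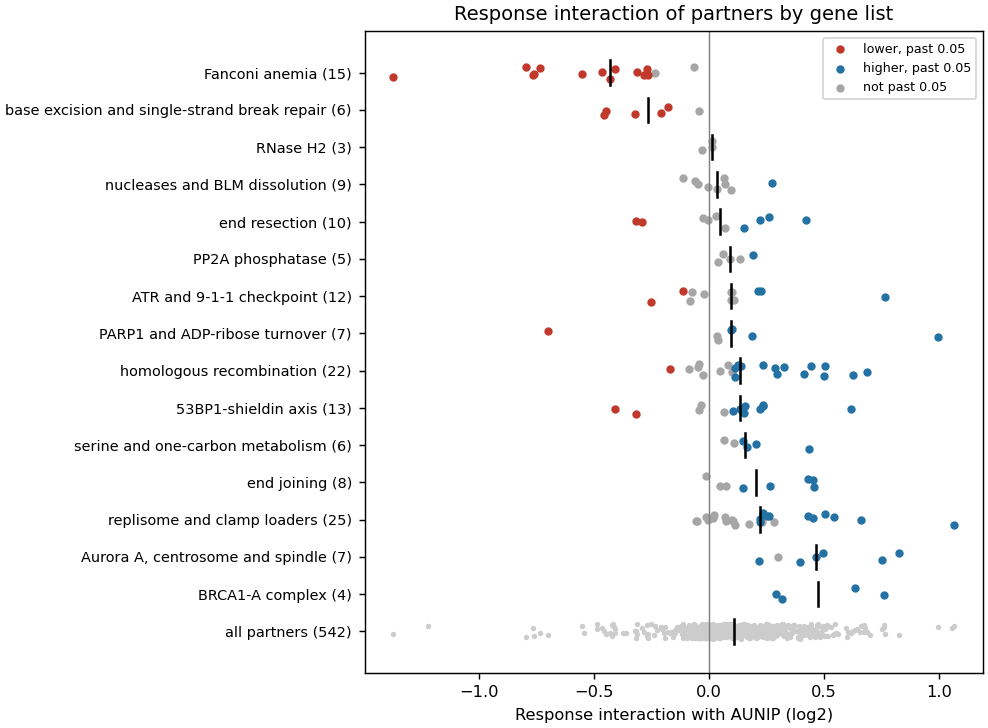
Response interaction with AUNIP (log2, horizontal axis) of each partner in 15 gene lists, ordered by median from lowest to highest, with all 542 partners at the bottom. Each dot is a gene, coloured by the edgeR test at an adjusted p of 0.05, and black lines are medians, which run from -0.43 for Fanconi anemia to 0.47 for the BRCA1-A complex.

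The remaining partners among the highest 10 were also genes needed for growth, and several had few constructs with at least 30 reads at T0. The fitted values sum all 8 constructs of a pair. NOL6, needed to process ribosomal RNA, had 1.06 (SE 0.27, adjusted p = 0.00182 in edgeR), and 4 of its constructs had a mean of at least 30 reads at T0. NOL6 did not pass without replicate 1 of 2022 or without replicate 2 of 2023. HAUS1, with 6 such constructs, had values from 0.37 to 1.71 over the cultures. Without replicate 1 of 2023 HAUS1 stood at 0.50 and did not pass. NUP62, of the nuclear pore, had 0.76 (SE 0.16) with 3 such constructs, and 0.45 in 2022 alone. HJURP, which deposits the centromeric histone, had 0.70 (SE 0.07) with 8 such constructs.
Near the lower end, MCTS1, which with DENR restarts translation on reused ribosomes, had -0.55 (SE 0.06, adjusted p = 9.31e-11) and ranged from -0.89 to -0.31 over the cultures. MOSPD2, a tether between the endoplasmic reticulum and other organelles, had -0.49 (SE 0.04, adjusted p = 5.65e-14).

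Partners that slowed growth by themselves had higher interactions. Among 146 partners whose own growth change was below -1, the median interaction was 0.32, with 123 higher and none lower. Among partners between -1 and -0.25 the median was 0.12, with 93 higher and 24 lower. Among partners above that, it was -0.01, with 33 higher and 36 lower. Spearman's rho across the 542 partners was -0.66 between interaction and partner growth and 0.53 between interaction and the partner's own response. Both are descriptions across genes that share the same libraries, and the partner-alone counts enter both axes. FAM175A, UIMC1 and TP53BP1 were among the 33 that rose in the group above -0.25, with own growth changes of -0.03, 0.01 and -0.20.

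**Figure D4:**
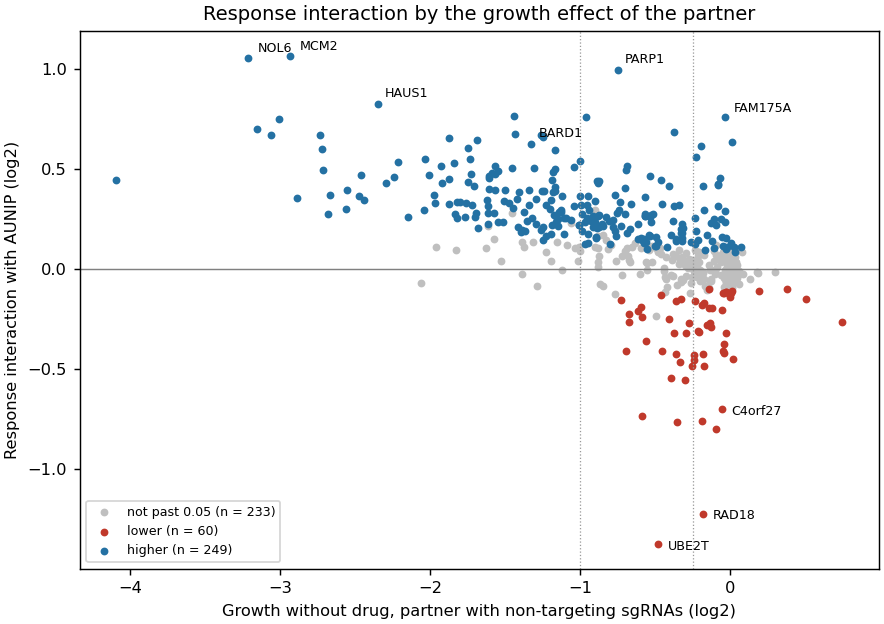
Response interaction with AUNIP (log2, vertical axis) against growth without drug of the same partner with non-targeting sgRNAs (log2, horizontal axis), 542 partners, coloured by the edgeR test. Dotted lines mark -1 and -0.25. No partner left of -1 was called lower, and UBE2T, RAD18 and C4orf27 lie to the right.

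Across all partners both AUNIP sgRNAs and both orders gave similar patterns, but the lists at the lower end differed by sgRNA. Across the 542 partners the Pearson correlation of the interaction was 0.85 between the first and second AUNIP sgRNA, 0.88 between AUNIP in the first and in the second position, and 0.74 to 0.82 between cultures, as a description over genes that share partner-alone counts. The first 2 of these correlations are over means of log2 ratios over constructs, with 10 added to the counts of the pair. With summed counts, the median interaction was 0.14 with the first AUNIP sgRNA alone and 0.10 with the second. The Fanconi median was -0.31 with the first (9 of 15 lower) and -0.48 with the second (15 of 15). For base excision it was -0.06 with the first (1 of 6 lower) and -0.37 with the second (5 of 6).

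Without drug, AUNIP interacted with few genes. In the growth interaction, reference over T0 relative to the sum of the single changes, 72 of 542 partners passed (13.3%), 15 lower (2.77%) and 57 higher (10.5%), against 41.5% of all pairs, 2.99% lower and 38.6% higher. Centred on the median of all pairs, 127 passed, 119 lower and 8 higher, so the split of directions rests on the scaling. Fanconi anemia genes led the lower side: 11 of 15 fell, with a median of -0.19. FANCB was lowest at -0.47 (SE 0.07, adjusted p = 8.62e-06), followed by FANCA at -0.41 (SE 0.05), FANCD2 at -0.31 (SE 0.06), FANCG at -0.28 (SE 0.06) and UBE2T at -0.27 (SE 0.07). Without replicate 1 of 2022, UBE2T stood at -0.17 and did not pass. FANCA had -0.35 and -0.32 in 2023 and -0.61 and -0.37 in 2022, so that it was below 0 in every culture and lowest in replicate 1 of 2022. FANCB had -0.42 and -0.25 in 2023 and -0.83 and -0.39 in 2022. Without replicate 1 of 2022, 33 partners passed in all, 6 of them lower. The highest were HSD17B12, an enzyme of fatty acid elongation, at 0.25 (SE 0.07), DKC1, the pseudouridine synthase of H/ACA particles, at 0.25 (SE 0.08), NUP54 of the nuclear pore at 0.24 (SE 0.09), MBTPS2, a protease that releases membrane-bound transcription factors, at 0.24 (SE 0.04), and MCM4 of the replicative helicase at 0.23 (SE 0.07). All 10 had the same sign in the 4 cultures, but DKC1 did not pass without replicate 1 of 2022, nor NUP54 without replicate 2 of 2022 or without replicate 2 of 2023. C4orf27 and POLB, which fell in the response, had growth interactions of -0.02 each (SE 0.05 and 0.04), not past the test.

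The screens differed in dose and exposure, so the response interaction of 2023 minus that of 2022 was tested. No partner passed in edgeR (0 of 542, with 67 at an unadjusted p under 0.05) or in DESeq2 (0), against 0.015% of all pairs. Among the 5 positive differences with the lowest p, BRCA2 had 0.59 (SE 0.13, adjusted p = 0.0706), and RNASEH2B, UIMC1, ATRIP and PCBP1, an RNA-binding protein, had 0.26, 0.24, 0.30 and 0.27. The BRCA2 difference includes replicate 1 of 2022, where BRCA2 alone stood apart. On the negative side STRA13 had -0.40 (SE 0.09, adjusted p = 0.0833), FANCC -0.33, RAD18 -0.38, the ubiquitin gene UBB -0.28 and FANCF -0.48. The differences of STRA13, FANCC and FANCF include replicate 1 of 2022 too. There the median response interaction of the 15 Fanconi partners was -0.17, against -0.39 in replicate 2 of 2022. Without replicate 2 of 2022, that screen rested on replicate 1 alone, so no count is given for that setting.

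The backgrounds of 2 other genes were set beside AUNIP: RBBP8, its known partner in resection, and BRCA2. All backgrounds share the partner-alone and non-targeting counts, so their values are given side by side with an edgeR test of the difference. That test entered each library once per background as if independent, and did not pair the backgrounds within a culture. Its calls therefore do not allow for what the backgrounds share within a library. The single responses were -1.09 ± 0.02 for AUNIP, -1.79 ± 0.24 for RBBP8 and -2.21 ± 0.60 for BRCA2 (SD, n = 4). The AUNIP interaction was lower than that with RBBP8 for 228 of 541 shared partners and higher for 11 (42.1% and 2.03%), and lower than that with BRCA2 for 289 and higher for 25 (53.4% and 4.62%).

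All 15 Fanconi genes were lower with AUNIP than with RBBP8 (median difference -1.10), and 14 of 15 than with BRCA2 (-1.14). Their median interaction was -0.43 with AUNIP, 0.54 with RBBP8 and 0.73 with BRCA2. RAD18 had -1.22 with AUNIP against -0.06 with RBBP8 and 0.01 with BRCA2, and the differences of -1.16 (SE 0.10) and -1.23 (SE 0.10) passed. UBE2T had -1.38 with AUNIP against 0.17 with RBBP8 and 0.46 with BRCA2. The base excision list had a median of -0.27 with AUNIP, where POLB stood at -0.45 against 0.42 with RBBP8 and 1.37 with BRCA2.

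All 4 BRCA1-A genes were higher with AUNIP than with either of the others, with median differences of 0.35 from RBBP8 and 0.40 from BRCA2. FAM175A had 0.76 with AUNIP against 0.21 with RBBP8 and 0.10 with BRCA2. TP53BP1 was divided: its 0.62 with AUNIP was higher than the 0.18 with BRCA2, and lower than the 0.89 with RBBP8 (difference -0.27, SE 0.09, adjusted p = 0.0223). BARD1 had 0.63 with AUNIP, against 2.78 with RBBP8 and 2.68 with BRCA2, and both differences passed.

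**Figure D5:**
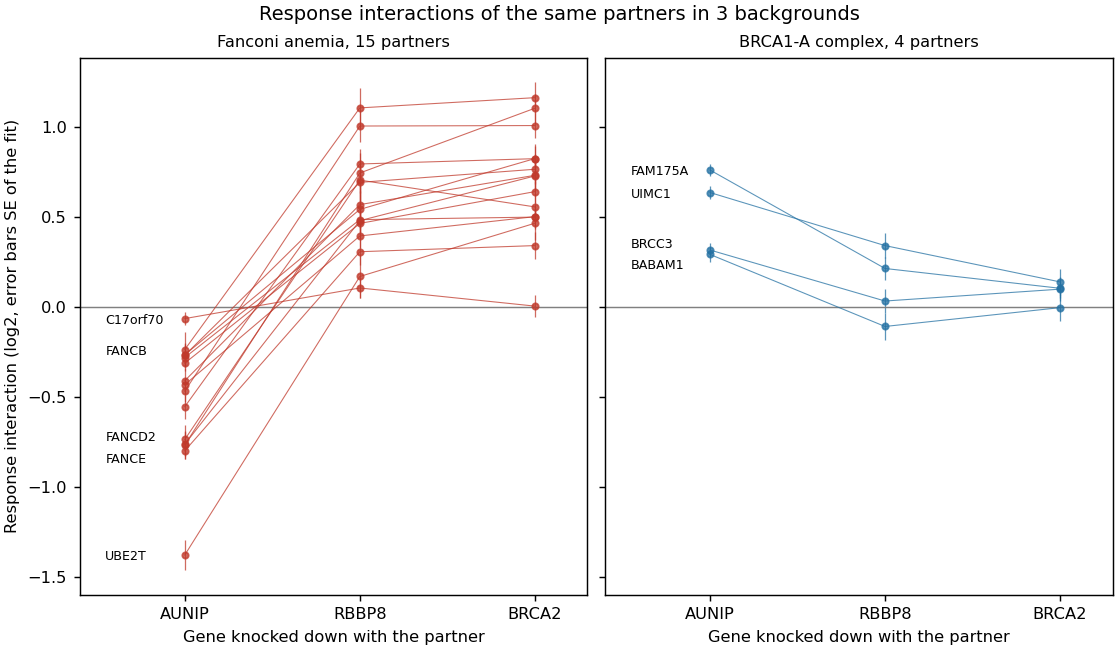
Response interaction (log2, vertical axis, error bars SE of the fit) of 15 Fanconi anemia genes (left) and 4 BRCA1-A genes (right) when repressed with AUNIP, RBBP8 or BRCA2. Lines join 1 partner across backgrounds. The Fanconi genes lie below 0 with AUNIP and at or above 0 with the others, and the BRCA1-A genes are highest with AUNIP.

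Some partners share a promoter region with another partner, so 1 sgRNA could repress both. Of 543 library genes, 458 could be placed at a RefSeq start. C19orf40 and CEP89, a protein of centriole appendages, start 284 bases apart on opposite strands, and both fell, to -0.74 and -0.41. FANCB and MOSPD2 start 352 bases apart, at -0.24 and -0.49. BRCA2 and ZAR1L start 145 bases apart, at 0.51 and 0.56, and PALB2 and DCTN5 156 bases apart, at 0.33 and 0.50. GEN1 and SMC6 start 59 bases apart, at 0.09 (not past the test) and 0.26. LRRC45 and STRA13 (CENPX), 427 bases apart, had opposite signs, at 0.11 and -0.31. The stretch between C19orf40 and CEP89 is shown because most of it belongs to both: chr19:32971992-32972241 in GRCh38.p14, on the plus strand as C19orf40 reads it, with each NGG in capitals.
C19orf40 promoter: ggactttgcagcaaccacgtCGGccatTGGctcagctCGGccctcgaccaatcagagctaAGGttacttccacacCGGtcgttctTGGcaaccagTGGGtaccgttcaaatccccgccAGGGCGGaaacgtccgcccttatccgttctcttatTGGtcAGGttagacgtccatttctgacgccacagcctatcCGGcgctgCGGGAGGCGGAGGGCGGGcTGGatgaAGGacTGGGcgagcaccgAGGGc
The motif occurred 28 times on the printed strand and 22 times on the other. Which of each pair of neighbours the values belong to was not tested.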

How the data were processed

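The libraries count sgRNA cassettes amplified by PCR from genomic DNA. The deposited values used here are counts of reads for each construct, not normalized: all are whole, and library totals differ. Bowtie2 2.3.4.1 is named in the submitters' processing notes, without its role. The authors' phenotype tables of log2 values were not used for results. They divide log2 ratios by constants of 7.19, 7.73, 8.04 and 7.98 for reference over T0 (growth). For niraparib over T0 the constants are 5.32, 5.36, 5.4 and 4.98. Both sets served only to scale 1 alternative.

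Counts were summed over the 8 constructs of each of 147153 gene pairs, and the 29 pairs with a mean T0 sum under 100, none of AUNIP, were left out. The expected count per library, gene 1 with non-targeting times gene 2 with non-targeting over both non-targeting, was the offset of a quasi-likelihood fit over 12 libraries with edgeR 4.0.16 (R 4.3.3), so log2 values of 0 mean that single changes add up. Each culture was divided into its arms, per the labels' protocols, so screen and replicate formed a block, and each endpoint arm of each screen had its own term. Adjusted p are Benjamini-Hochberg values over all pairs, over all genes for single knockdowns, and over shared partners where 2 backgrounds were compared. SE and p of the fit over all pairs come from the spread within screens (4 residual degrees of freedom, biological coefficient of variation 4.91%). They leave out the difference between screens and take single-knockdown sums as known. The spread of each pair was shrunk towards that of all pairs, with a median of 55.9 prior degrees of freedom. The p therefore rest mostly on spread shared over pairs from the same libraries, less on the cultures of 1 pair. Values of single cultures add 0.5 to each sum. Tested on 5000 simulated pairs, the fit recovered 100% of changes of 0.5 in either direction, 70% of falls and 78% of rises of 0.25, with 8 false calls among 4800 unchanged pairs. The simulated counts had 1 dispersion for all pairs, no culture that stood apart and no error in the single-knockdown sums. These rates hold for that setting only, and pairs with a wider spread were not simulated.

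Partners named were the 10 lowest and 10 highest that passed with the same sign in all cultures (5 and 5 for growth and for the screen difference), the 3 largest of each gene list, 10 genes of PARP inhibitor biology and the 5 single patterns nearest to AUNIP. Some results are not reported here. Other genes (AURKA, remaining list members, promoter neighbours) were named after their values were seen. The members and lists were chosen with earlier results of these data known. Promoter sequences are from RefSeq, GRCh38.p14.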

Additional observations from a re-analysis of the deposited data

How the results depend on the processing

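The response count stayed between 222 and 308 of 542 under 18 alternatives (301 with no replicate block, 288 with DESeq2, 259 to 263 without 1 culture). It was 56 with a curve of degree 2 as expectation (limma). The 20 lowest and highest partners kept their call in 15 of 20 with that curve and in 19 or 20 otherwise. Growth calls, 72 in the main fit, were 64 with no replicate block, 127 (119 lower, 8 higher) centred on the median of all pairs, 27 in 2023 alone, 45 in 2022 alone, 30 with the second AUNIP sgRNA alone, 46 and 32 with AUNIP in the first and second position, 7 with the curve and 33 to 58 without 1 culture (33 without replicate 1 of 2022). Centring moved the median growth interaction of all pairs to -0.00, against 0.08 uncentred. The screen difference had 0 calls with no replicate block and 0 to 5 without 1 culture. The response of AUNIP alone was -1.42 and -0.94 with the first and second sgRNA, and -1.12 and -1.07 in the first and second position. With the curve, PARP1 turned to -0.45, PARP2 to -0.039, PPP2R1A to -0.33, SHMT2 to -0.31 and PSPH to -0.046, and RBBP8 stood at 0.41 as a mean over constructs. The cause was not tested. Of 1102 comparisons of 58 named response results with an alternative, 1019 kept direction and side of the threshold. The block changed no other call by over 1.5 times. Partners with few T0 reads (NOL6, NUP62, HAUS1) had the widest errors.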

Other observations

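Partners outside the gene lists, chosen after their values were seen, included MCTS1 and DENR, which together restart translation after a terminated reading frame, with response interactions of -0.55 and -0.24. HNRNPK, an RNA-binding protein, had -0.42, the splicing factors SRSF11 and RBM25 -0.42 and -0.36, and LIN37, of the DREAM complex, -0.38. Each of these values passed the edgeR test over all pairs.

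KIDINS220, a scaffold protein of neurotrophin signalling, had a response interaction of -0.49 (SE 0.05, adjusted p = 2.71e-13), with 8 of 8 constructs below 0. With AUNIP its response was -0.46 and -0.64 in 2023 and -0.59 and -0.85 in 2022, against -0.12 and -0.10 in 2023 and -0.17 and -0.19 in 2022 with non-targeting sgRNAs.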
